A study of Mus musculus with 47 samples.

Results

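The genomic regions described here carried a Myc peak in control liver and had lost it in Myc-driven liver tumours. Joining peaks of all 13 Myc ChIP-seq lists that shared 1 bp or more gave 64294 regions. A region was taken when it had a peak in at least 2 of 4 control livers and in at most 1 of 6 tumours, and 497 regions met this rule. They are called lost regions below. The remaining 1748 of the 2245 regions with a peak in at least 2 control livers had one in at least 2 tumours, and they are called kept regions. The Myc peaks of control livers and tumours chose the lost regions, so Myc values in these groups are given as a description with no test.

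The mice were of the FVB strain. One set of tumours carried tet-Myc and LAPtTA and had tet-Myc switched off for 16 h with doxycycline in the food, and a second set of the same genotype had tet-Myc expression on. The labels' protocol dates induction to development in utero and calls LAPtTA liver-specific. It names a wild-type and a V394D form of tet-Myc, and the labels do not say which form a given tumour expressed. Control liver 1 carried tet-Myc that was not expressed, control liver 2 carried LAPtTA, and control livers 3 and 4 were wild type. Myc was mapped in 3 tumours with tet-Myc off, 6 tumours with it on and 4 control livers. RNA polymerase II (RNAPII), H3K4me3 and H3K27ac were each mapped in 3 tumours off, 4 tumours on and 4 control livers. The H3K4me3 and H3K27ac lists of a library number carry the same specimen name, so the marks share specimens, and nothing in the labels states that all specimens of a group came from separate animals. P-values therefore reflect sample-to-sample spread that may in part be technical. An mm9 annotation was not used here, so no gene is named, no sequence is shown and the liver label was not checked against marker genes. All positions are in mm9.

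Myc is a transcription factor that pairs with Max and binds at E-box sequences, mostly in chromatin that is already open. H3K4me3 lies mainly at active promoters, H3K27ac lies at active promoters and enhancers, and RNAPII marks transcribed promoters and gene bodies. In adult liver Myc is normally low, and tumours with a Myc transgene bind it at many more promoters and enhancers than normal tissue does. Regions bound in control liver and unbound in such tumours are therefore the exception to the usual direction.

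The Myc lists differed widely in size. The 3 lists of switched-off tumours held 98, 331 and 239 peaks, the 6 lists of tumours on held 19269 to 55763, and the lists of control livers 1 to 4 held 1953, 2816, 1002 and 8499. The narrowest peak was 51 to 53 bp in the switched-off lists, 239 to 328 bp in the lists of tumours on, 55, 71 and 53 bp in control livers 1 to 3 and 293 bp in control liver 4. The settings behind each list are not given in the sources used here, so a peak lost or regained and a difference between lists cannot be told apart. With each tumour and control list cut to the 1002 highest-scoring peaks, 641 regions met the same rule. This cut took most peaks from the tumour lists and none from control liver 3, so it made absence in tumours more likely. The count of 641 is therefore no check on list size. With Myc peaks at or above the median score of all Myc peaks, 23.39, 57 regions met the rule. Median scores were 9.44 to 12.76 in the control lists and 19.05 to 34.06 in the lists of tumours on. This limit therefore took most peaks of every control list and made presence in control liver less likely. A peak in at least 3 control livers was found in 220 regions that met the tumour limit. The reads behind each list are unknown, so a region without a peak is one in which no peak was called. No 2 libraries of a group shared more than 1 identical peak.

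Lost regions held almost none of the peaks of tumours and a sizeable share of those of control livers 1 to 3. Between 0% and 0.108% of the peaks of a tumour list lay in them, against 22.2%, 17.8%, 20.9% and 4.11% of the peaks of control livers 1 to 4. Of the 497 regions, 396 had no peak in any tumour and 101 had one in a single tumour. That tumour was tumour 6, which had the longest list, in 59 regions, tumour 5 in 22, tumour 4 in 17 and tumour 3 in 3. Among control livers, 277 lost regions had a peak in 2 livers, 129 in 3 and 91 in all 4. Control liver 1 had a peak in 361 of them, control liver 2 in 441, control liver 3 in 155 and control liver 4 in 348. The commonest combination was the 2 transgene-carrying control livers, 1 and 2, with 119 regions, followed by 101 regions in livers 2 and 4. The number of lost regions fell to 265 without control liver 2, which was the largest change on leaving out 1 library.

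The lost regions were short. Their median length was 387 bp (62 to 6043 bp), against 2054 bp in kept regions and 1106 bp in all 39145 Myc regions found in at least 2 libraries. Kept regions hold peaks of at least 2 tumours by the rule, so this difference is partly built in. The median peak was 428 to 762 bp wide in the lists of tumours on. It was 78 to 132 bp wide in control livers 1 to 3 and 444 bp in control liver 4. Where a control liver had a peak, it covered a median of 35% of the region in liver 1, 55.6% in liver 2, 20.3% in liver 3 and 100% in liver 4. The peaks were not the weakest of their lists. By the authors' score, the median peak in a lost region stood at the 62.2, 65.3, 62.3 and 62.4 percentile of the lists of control livers 1 to 4. The median peak in a kept region stood at the 53.1, 53.8, 47.8 and 70.5 percentile. Regions just inside the tumour limit, with 1 tumour peak, had a median mean control coverage of 23.5%, close to the 23.6% of the 98 regions just outside it with 2 tumour peaks. Lost regions with no tumour peak had 40.0%, and the 1309 regions just outside the control limit, with 1 control peak and at most 1 tumour peak, had 25%. A tumour peak can lengthen the joined region and so lower its control coverage, so these coverages differ in part by construction.

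The 6 regions with the highest mean Myc coverage among those bound in all 4 control livers and in no tumour show what these sites look like. In chr10:98847383-98847801 Myc peaks covered 0% in all 3 switched-off tumours and in all 6 tumours on, against 80.9%, 96.2%, 67.3% and 94.8% in control livers 1 to 4. In chr12:81282596-81283159 coverage was 0% in all tumours of both kinds, against 73.1%, 73.9%, 72.7% and 100% in control livers. Both regions carried H3K27ac in control liver, and only there: it covered 0% of the first in all tumours and 100%, 0%, 0% and 100% in control livers, and 0% of the second in all tumours and 100% in all 4 control livers. In chr8:128096180-128096702 control Myc coverage was 54.7%, 83.8%, 66.9% and 100%, and H3K27ac covered 0% in all tumours of both kinds and 100% in all 4 control livers. In chr12:100574478-100574964 control Myc coverage was 83.4%, 69.4%, 58.7% and 100%, and H3K27ac was present in 1 of 3 tumours off, 1 of 4 on and 3 of 4 control livers. A region that lost Myc could keep its mark. In chr4:124423349-124423742, with control Myc coverage of 59.9%, 75.1%, 57.9% and 100%, H3K27ac covered 100% in all 11 libraries. The sixth region, chrM:10917-16374, lies in the mitochondrial genome and is described with the switched-off tumours.

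**Figure D1:**
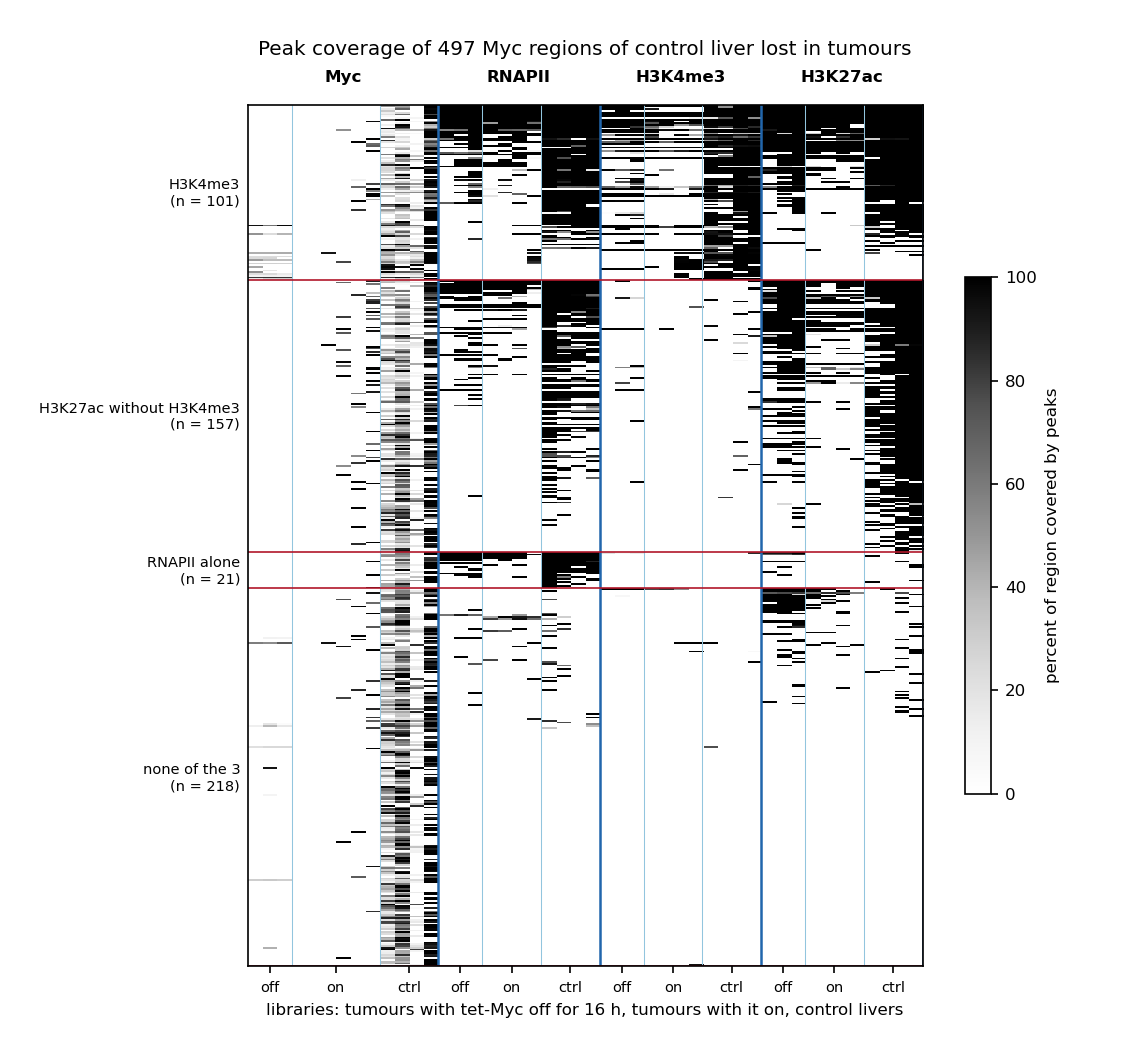
Percent of each of the 497 lost regions (rows) covered by peaks of each library (columns), from 0 (white) to 100 (black), for Myc, RNAPII, H3K4me3 and H3K27ac. Columns run from tumours with tet-Myc off for 16 h through tumours with it on to control livers, and rows are grouped by the marks present in at least 2 of 4 control livers. The marks of the upper 3 groups are densest in the control columns, and the 218 regions of the lowest group are nearly blank for all marks.

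Fewer lost than kept regions carried an active mark in control liver. A mark was counted as present in liver when at least 2 of the 4 control libraries had a peak on the region. H3K4me3 was present at 101 lost regions (20.3%), H3K27ac without H3K4me3 at 157 (31.6%), RNAPII alone at 21 (4.23%), and none of the 3 at 218 (43.9%). The same shares were 67.8%, 23.3%, 1.77% and 7.09% in kept regions and 39.2%, 22.4%, 3.67% and 34.7% in all Myc regions. At 135 lost regions (27.2%) no mark had a peak in any of the 33 libraries, against 2.00% of kept regions and 8.65% of all Myc regions. Unmarked lost regions were not those with the weakest Myc peaks: the median peak in them stood at the 65.5, 75.6, 61.6 and 65.5 percentile of scores in control livers 1 to 4. H3K27ac was present at 50.5%, 45.7% and 40.7% of lost regions bound in 2, 3 and 4 control livers, and RNAPII at 40.8%, 35.7% and 28.6%, whereas H3K4me3 was present at 18.1%, 21.7% and 25.3%. H3K27ac was present at 69.3% of the lost regions with 1 tumour peak and at 41.9% of those with none.

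Peaks of the marks over lost regions were wide. A wide peak is more likely to overlap a region, so a width above that of the whole list is partly built in. The median H3K27ac peak over lost regions was 11770 to 18120 bp wide in the 4 control livers, against 7158 to 11200 bp over kept regions and 5634 to 7822 bp in the lists as a whole. RNAPII peaks over lost regions had a median width of 7488 to 11050 bp, against 2718 to 4535 bp over kept regions. For H3K4me3 the medians were 4199 to 5509 bp over lost and 3026 to 3475 bp over kept regions. In all 4 control livers and for all 3 marks the median was wider over lost than over kept regions. H3K4me3 was present in control liver at 67.8% of kept and 20.3% of lost regions, and the widths were not adjusted for this.

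All 3 marks were found at fewer lost regions in tumours than in control liver. RNAPII peaks lay on 15.3% ± 5.76 of the 497 regions in switched-off tumours (SD, n = 3), on 11.5% ± 1.94 in tumours with tet-Myc on (n = 4) and on 35.4% ± 5.63 in control livers (n = 4). H3K4me3 peaks lay on 9.46% ± 2.12 in tumours off, 6.39% ± 1.00 in tumours on and 19.3% ± 2.63 in control livers. H3K27ac peaks lay on 30.3% ± 6.68 in tumours off, 14.2% ± 1.65 in tumours on and 42.0% ± 8.07 in control livers. For every mark the 4 tumours on and the 4 control livers did not overlap: the highest tumour stood at 14.1%, 7.24% and 15.9% for RNAPII, H3K4me3 and H3K27ac, and the lowest control liver at 30.2%, 15.9% and 33.2%. In switched-off tumours the H3K27ac shares were 22.9%, 31.8% and 36.0%, so all 3 lay above the tumours on and 1 lay within the range of the control livers. The bulk tissue does not allow fewer cells with a mark to be told apart from less of the mark per cell.

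Kept regions did not show drops of this size. RNAPII peaks lay on 71.7% ± 4.84 of kept regions in tumours off, 70.5% ± 4.20 in tumours on and 82.7% ± 4.03 in control livers. H3K4me3 peaks lay on 70.6% ± 2.01 in tumours off, 60.9% ± 0.462 in tumours on and 66.5% ± 2.62 in control livers. For H3K27ac the shares were 90.4% ± 3.67 in tumours off, 82.8% ± 2.06 in tumours on and 82.7% ± 8.75 in control livers. Over all Myc regions in at least 2 libraries H3K27ac was the more frequent in tumours, with 72.3% ± 5.55 in tumours off, 61.9% ± 4.30 in tumours on and 48.7% ± 10.4 in control livers. These shares carry no test, because the regions were chosen by a Myc readout from the same tissues.

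**Figure D2:**
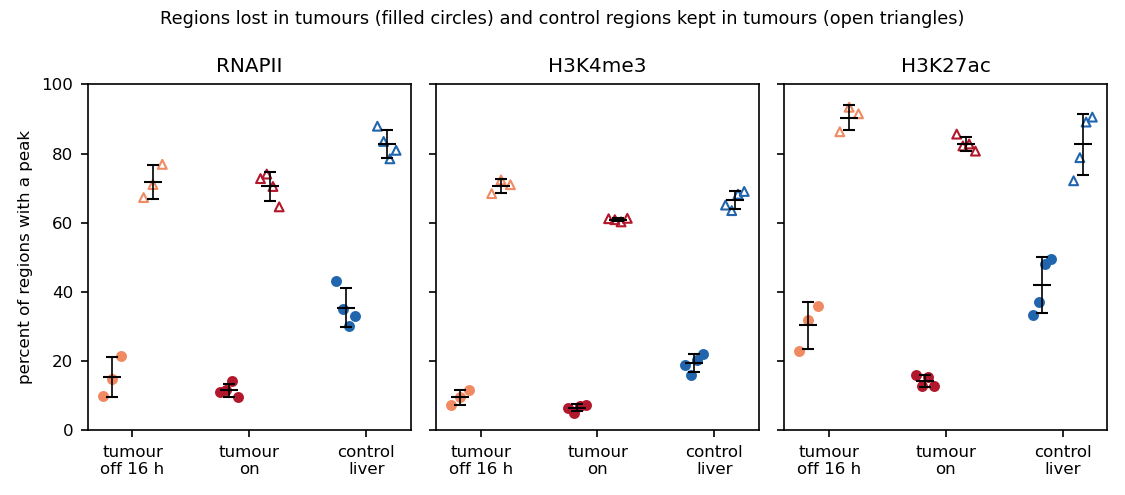
Percent of the 497 lost regions (filled circles) and the 1748 kept regions (open triangles) with a peak of RNAPII, H3K4me3 or H3K27ac, 1 point per library, with black bars for mean and SD. For lost regions the tumours on, at most 14.1%, 7.24% and 15.9%, lie below all control livers for each mark, and the means of switched-off tumours lie between those of the other groups.

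Region by region, each mark was tested with limma on the percent of the region covered by its peaks, over all Myc regions in at least 2 Myc libraries with the mark in at least 2 of its 11 libraries. Calls needed a Benjamini-Hochberg adjusted p below 0.05 over all regions tested. For RNAPII 197 of 497 lost regions were tested, for H3K4me3 110 and for H3K27ac 273. Of these, 185, 101 and 236 had the mark in at least 2 control livers, so most entered through control liver and a lower value in tumours is partly built in. Shares of tested regions are therefore given as a description, and shares of all 497 stand beside them. Some regions had all libraries at 0% in a compared group and at 100% in the other. Their error comes from other regions or from the remaining group, so their standard errors and p-values are not given below. With 4 libraries against 4, an exact permutation test of a single region could reach no p below 0.0286. Fisher's exact test on presence has the same limit. After adjustment it could call a region only if most tested regions reached that p, so its counts of 0 below are no check on limma.

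RNAPII was called lower in tumours on than in control liver at 79 lost regions and higher at 2, against 7.43% and 3.98% of all tested Myc regions. The 79 were 15.9% of all 497 lost regions and 40.1% of those tested. The 2 higher ones were 1.02% of those tested, below the background share. Among kept regions 127 were lower, which is 7.27% of all 1748 and 8.27% of the 1536 tested. Of the 79, 31 carried H3K4me3 in control liver, 41 H3K27ac without H3K4me3 and 7 RNAPII alone, and at 60 of them the groups did not overlap; lower calls without overlap were 6.03% of all tested Myc regions. In chr1:135192971-135193385 RNAPII and H3K27ac each covered 0% in all 3 tumours off and all 4 tumours on, against 100% in all 4 control livers. In chr1:193819922-193820088 RNAPII showed the same pattern, with H3K27ac at 0% in all tumours and 100%, 0%, 100% and 100% in control livers. In chr1:21256502-21256913, a region with RNAPII alone, coverage was 100% in all 3 switched-off tumours, 0% in all tumours on and 100% in all 4 control livers. In chr1:166088760-166089052 RNAPII covered 0%, 0% and 100% in tumours off, 0% in all tumours on and 100% in all control livers. The count of 79 became 58 to 69 on leaving out 1 library, so it fell whichever library was left out. It became 43 against the wild-type control livers alone, 37 with peaks at or above the median width and 45 with lost regions redefined on control livers 1 to 3. It became 0 by Fisher's exact test on presence, where 58 had an unadjusted p under 0.05.

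The 2 lost regions with more RNAPII in tumours carried no mark in control liver. In chr4:152526977-152527523 RNAPII covered 0% in all 3 switched-off tumours, 43.7%, 100%, 92.3% and 85.0% in tumours on, and 0%, 29.6%, 0% and 0% in control livers. The difference was 72.9 ± 12.2 points between tumours on and control liver (limma SE, adjusted p = 0.00455) and -80.3 ± 13.2 points between tumours off and on (adjusted p = 0.00845). In chr3:148715360-148716072 it covered 0% in all 3 tumours off, 81.1%, 49.0%, 94.7% and 64.8% in tumours on, and 42.4%, 0%, 0% and 0% in control livers. The differences were 61.8 ± 12.2 points (adjusted p = 0.00988) for tumours on against control liver and -72.4 ± 13.1 points (adjusted p = 0.0158) for tumours off against on. Both were bound by Myc in all 4 control livers and in no tumour, and neither had an H3K4me3 or H3K27ac peak in any library.

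H3K4me3 was called lower in tumours on than in control liver at 35 lost regions, against 3.44% of all tested Myc regions, and higher at 0, against 7.06%. At an unadjusted p under 0.05 limma had 1 higher region, and Fisher's exact test had 0. The 35 were 7.04% of all lost regions and 31.8% of the 110 tested, and all 35 belonged to the class with H3K4me3 in control liver. At all 35 the groups did not overlap, and 3.31% of all tested Myc regions were lower without overlap. Among kept regions 76 (4.35% of 1748) were lower and 80 were higher. In chr2:60409742-60409820 H3K4me3 and RNAPII each covered 0% in all tumours off and on, against 100% in all control livers, and H3K27ac covered 0% in every library. In chr2:172983231-172984487, a 1257 bp region bound by Myc in all 4 control livers, H3K4me3 covered 0%, 0% and 100% in tumours off, 0% in all tumours on and 100% in all control livers. This region was called lower in tumours on than in control liver. The neighbouring region chr2:172982525-172982644 had the same H3K4me3 values, and RNAPII and H3K27ac stayed present at both in some tumours: RNAPII in 1 of 4 and H3K27ac in 2 of 4. With H3K4me3 peaks at or above the median of the authors' scores over all libraries, 0 lost regions were called lower. Median scores were 5985 to 15097 in control lists and 11255 to 14594 in tumours on, and their part in this count was not tested. By Fisher's exact test 0 were called lower, with 31 at an unadjusted p under 0.05.

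H3K27ac was called lower in tumours on than in control liver at 99 lost regions, against 3.08% of all tested Myc regions, and higher at 0, against 13.5%. At an unadjusted p under 0.05 limma had 1 higher region, and Fisher's exact test had 0. The 99 were 19.9% of all lost regions and 36.3% of the 273 tested. Among kept regions 72 were lower, which is 4.12% of all 1748 and 4.29% of the 1679 tested. Of the 99, 66 had H3K27ac without H3K4me3 in control liver and 33 had H3K4me3, and the groups did not overlap at 67, while lower calls without overlap were 1.82% of all tested Myc regions. In chr1:142161590-142162062 H3K27ac covered 100% in all 3 tumours off, 0% in all tumours on and 100% in all control livers. In chr1:184356974-184357272 and in chr1:60698149-60698575 it covered 0%, 100% and 100% in tumours off, 0% in all tumours on and 100% in all control livers. Both regions were called lower in tumours on than in control liver. The count of 99 became 67 to 91 on leaving out 1 library. By Fisher's exact test 0 of the 99 were called, with 65 lost regions at an unadjusted p under 0.05. Redefining lost regions on control livers 1 to 3 gave 63, and peaks at or above the median score of all libraries gave 10. Median H3K27ac scores were 1955 to 3390 in control lists and 2794 to 3329 in tumours on, and their part in this count was not tested.

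**Figure D3:**
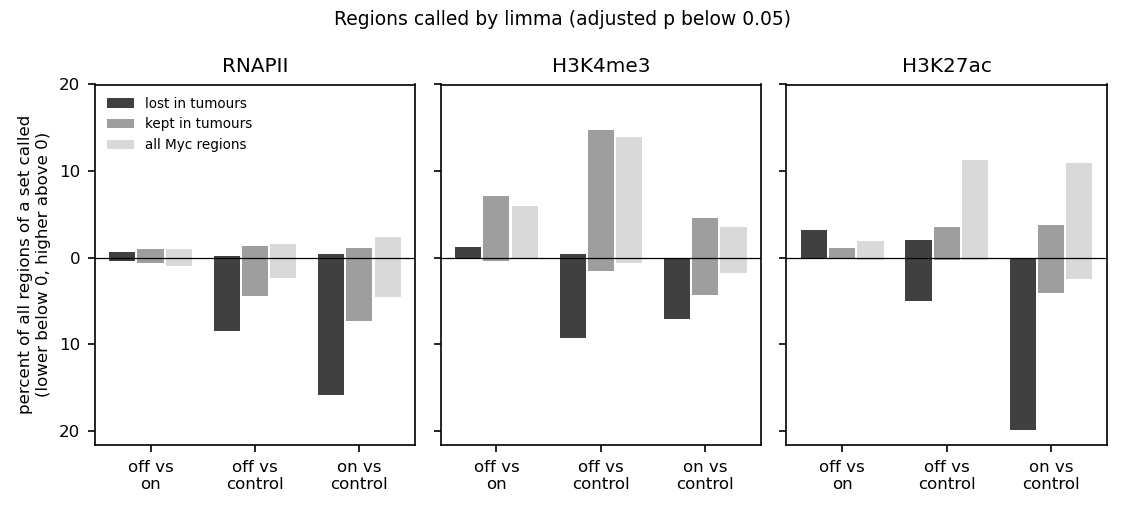
Percent of all lost, kept and Myc regions, tested or not, that limma called lower (bars below 0) or higher (bars above 0), in each comparison of the 3 marks. In tumours on against control liver 15.9%, 7.04% and 19.9% of the lost regions were lower for RNAPII, H3K4me3 and H3K27ac, against 7.27%, 4.35% and 4.12% of the kept regions and 4.49%, 1.75% and 2.5% of all Myc regions.

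The calls of different marks met at part of the regions. In all, 151 lost regions (30.4%) were lower in tumours for at least 1 mark, against 12.9% of kept regions and 7.19% of all Myc regions. RNAPII and H3K27ac were both lower at 39 regions (7.85%, against 1.43% of kept and 0.812% of all Myc regions), which is 49.4% of the RNAPII list and 39.4% of the H3K27ac list. RNAPII and H3K4me3 were both lower at 15 (3.02%, against 1.14% and 0.654%), which is 19.0% and 42.9% of their lists. H3K4me3 and H3K27ac were both lower at 17 (3.42%, against 0.744% and 0.268%), which is 48.6% and 17.2%. At 9 regions (1.81%, against 0.458% and 0.194%) all 3 marks were lower, and these were picked out after their values were seen: chr3:14867270-14867583, chr6:85818174-85818703, chr6:90494256-90494695, chr7:15107828-15108377, chr8:95798661-95798804, chr8:131011342-131011682, chr10:40350777-40351151, chr16:22950883-22951414 and chr17:33054005-33054328. In each of the 9 RNAPII and H3K4me3 covered 0% in all 4 tumours on and 100% in all 4 control livers. They differed after shutdown. In chr6:85818174-85818703 and chr8:95798661-95798804 all 3 marks covered 0% in all switched-off tumours. In chr16:22950883-22951414 H3K27ac covered 100% in all 3 tumours off, 0% in all tumours on and 100% in all control livers, while RNAPII and H3K4me3 were present in 1 tumour off, at 67.7% and 69.4%. This region had Myc peaks over 69.4%, 66.2%, 50.8% and 97.4% of its length in the control livers and over 79.5% in tumour 6.

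Lost regions that carried a mark in control liver had mostly lost it altogether in tumours. Of 236 with H3K27ac in at least 2 control livers, 150 (63.6%) had it in no tumour on and 40 in all 4, whereas 6.21% of such kept regions and 7.80% of such regions among all Myc regions had it in no tumour. For RNAPII 104 of 185 (56.2%) had it in no tumour on, against 11.4% of kept and 16.0% of all such regions. For H3K4me3 56 of 101 (55.5%) had it in no tumour on, against 8.78% and 7.86%. The regions counted here were chosen for the mark in control liver, so a lower share elsewhere is partly built in, for kept and all regions as well. Gains were few. Of 219 lost regions without H3K27ac in any control liver, 5 (2.28%) had it in at least 2 tumours on, against 27.8% of such kept regions and 33.4% of such regions overall. RNAPII appeared in at least 2 tumours on at 1 of 262 (0.382%), against 8.84% of such kept and 10.9% of all such regions. H3K4me3 did so at 1 of 368 (0.272%), against 0.982% and 4.29%.

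Regions with a mark in control liver and in no tumour on were next followed into tumours with tet-Myc off for 16 h. Of the 150 such lost regions for H3K27ac, 45 (30.0%) had it in at least 2 of 3 switched-off tumours and 77 (51.3%) in none. The share with it in at least 2 was 58.8% among kept regions and 51.8% among all Myc regions chosen in the same way. For RNAPII 8 of 104 lost regions (7.69%) had the mark in at least 2 switched-off tumours, against 15.2% of kept and 20.1% of all Myc regions. For H3K4me3 9 of 56 (16.1%) had it, against 56.7% and 60.6%. Regions chosen for the absence of a mark in tumours on can only be equal or higher in another group, and for all 3 marks the lost regions had the lowest share. The differences between sets and between marks were not tested. In the class with H3K27ac and no H3K4me3, H3K27ac peaks lay on 45.7% ± 10.2 of regions in tumours off, 18.3% ± 2.91 in tumours on and 78.3% ± 19.3 in control livers. In the class with H3K4me3, this mark lay on 39.3% ± 6.95 in tumours off, 29.2% ± 4.46 in tumours on and 88.1% ± 7.96 in control livers. In the class with RNAPII alone, RNAPII lay on 42.9% ± 9.53 in tumours off, 20.2% ± 10.6 in tumours on and 79.8% ± 14.7 in control livers. The classes were set by the control libraries, so the control values are high by definition. Unmarked regions had H3K27ac at 10.9% ± 2.53 in tumours off, 3.44% ± 1.74 in tumours on and 3.44% ± 3.19 in control livers. The switched-off H3K27ac lists also covered more of the genome, 168 to 214 Mb against 104 to 141 Mb in tumours on and 72.9 to 153 Mb in control livers, and the part of this in the values was not tested.

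**Figure D4:**
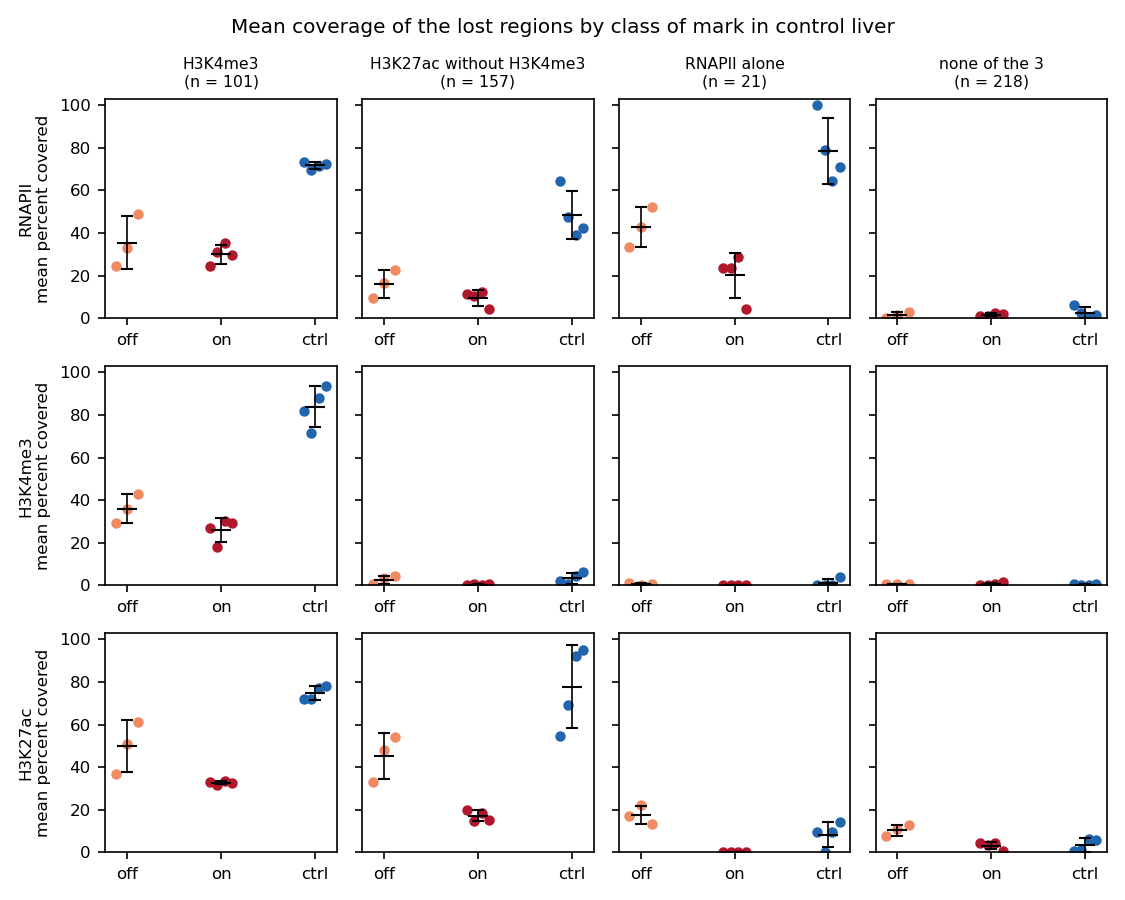
Mean percent of the region covered by RNAPII, H3K4me3 and H3K27ac peaks (rows), by class of mark in control liver (columns), 1 point per library with mean and SD in black. Switched-off tumours lie between tumours on and control livers in group mean wherever the class carries the mark, with means for H3K27ac in its own class of 45.1% in tumours off, 17.2% in tumours on and 77.8% in control livers.

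In tumours off against tumours on, H3K27ac was called higher at 16 lost regions, against 2.45% of all tested Myc regions, and lower at 0, against 0.302%. The unadjusted limma test had 0 lower regions under 0.05 and so did Fisher's exact test. The 16 were 5.86% of the 273 tested, and 20 of 1679 kept regions (1.19%) were higher. In chr2:4909061-4909370 H3K27ac covered 100% in all tumours off, 0% in all tumours on and 100% in all control livers, while RNAPII covered 0% in all tumours of both kinds and 100% in all control livers. Together with chr1:142161590-142162062 this was the largest difference the scale allows. The count of 16 rose to 31 without switched-off tumour 1, the library with the shortest of the 3 H3K27ac lists, and Fisher's exact test called 0 with 25 at an unadjusted p under 0.05.

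H3K4me3 was called higher in tumours off than on at 6 lost regions, against 11.8% of all tested Myc regions, and lower at 0, against 0.201%. The 6 were 5.45% of the 110 tested, which is below the background share. An unadjusted p under 0.05 was reached by 15 higher and 1 lower region in limma, and by 5 and 0 in Fisher's exact test. In chr8:10900721-10901243 H3K4me3 covered 100% in all tumours off, 0% in all tumours on and 100% in all control livers, with H3K27ac at 100% in all 11 libraries. In chr19:5838320-5838617 H3K4me3 covered 100% in all tumours off, 0% in all tumours on and 100%, 51.7%, 100% and 100% in control livers, with RNAPII and H3K27ac at 100% in all libraries. The difference between tumours off and on was 100 points. The count of 6 became 10 without switched-off tumour 1, and with the mean coverage of each library as a covariate 2 regions were higher and 8 lower.

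RNAPII was called higher in tumours off than on at 3 lost regions (1.52% of the 197 tested), against 1.73% of all tested Myc regions. It was called lower at 2 (1.02%), against 1.58%. Both shares were below the background, so these regions are described as single cases. The 2 lower ones are the unmarked regions with RNAPII in tumours described above. Besides chr1:21256502-21256913, the largest increase was in chr4:11088678-11088802, where RNAPII covered 100% in all 3 tumours off, 0% in all tumours on and 0% in all 4 control livers. In that region H3K27ac covered 0%, 100% and 100% in tumours off, 0% in all tumours on and 100%, 0%, 100% and 100% in control livers. The count of 3 became 10 without switched-off tumour 1 and 5 without tumour 3, and the count of 2 became 1 without tumour 1 or switched-off tumour 2.

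Switched-off tumours were called lower than control liver at part of the lost regions. RNAPII was called lower at 42 (8.45% of all 497 lost regions, 21.3% of those tested) and higher at 1 (0.508% of those tested). The shares of all tested Myc regions were 3.83% and 2.6%. At all 42 the groups did not overlap, while lower calls without overlap were 3.82% of all tested Myc regions. H3K27ac was called lower at 25 (5.03% of all lost regions, 9.16% of those tested) and higher at 10 (3.66% of those tested), against 0.381% and 14%. H3K4me3 was called lower at 46 (9.26% of all lost regions, 41.8% of those tested) and higher at 2 (1.82% of those tested), against 1.27% and 27.3%. The groups did not overlap at only 30 of the 46, and the share of such calls over all tested Myc regions was not counted. With peaks at or above the median score the balance turned: H3K27ac had 10 lower and 19 higher, and H3K4me3 had 2 lower and 5 higher. That limit was a single score for all libraries of a mark. Median H3K4me3 scores were 5985 to 15097 in control lists and 20761 to 22738 in switched-off lists. For H3K27ac they were 1955 to 3390 and 2813 to 4412. Such a turn is therefore partly built in. The 42 lower RNAPII calls became 25 in lost regions with no tumour peak, 22 with lost regions redefined on control livers 1 to 3 and 22 with peaks at or above the median width. These comparisons share the control livers with those of tumours on. With mean coverage as a covariate the H3K27ac calls were 55 lower and 4 higher, and without control liver 1 there were 42 lower. Without switched-off tumour 2 there were 4 higher. The 46 lower H3K4me3 calls became 28 without control liver 1 or any 1 of the 4 tumours on, 26 without control liver 4, and 23 and 24 without switched-off tumours 1 and 2, and the 2 higher ones became 4 without switched-off tumour 1 and 1 without any 1 of the other libraries except control liver 4. The single higher RNAPII call became 2 without control liver 1 and 3 without switched-off tumour 1.

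The distance from lost regions to the Myc sites of tumours differed by class. By the rule a lost region cannot itself have a Myc peak in at least 2 tumours. No other set of regions was measured, so whether these distances are long or short was not tested. The median distance to the nearest region with a Myc peak in at least 2 tumours was 13.2 kb, and 222 lost regions (44.7%) had one within 10 kb. By class the median was 2.23 kb for regions with H3K4me3, 7.05 kb for those with H3K27ac without H3K4me3, 8.44 kb for those with RNAPII alone and 31.0 kb for unmarked ones. Another lost region lay within 10 kb of 69 (13.9%). Runs of at least 3 lost regions with gaps of at most 10 kb occurred in 7 places, which were picked out after their values were seen. In the run of 5 at chr8:112506243-112524995 the first region, chr8:112506243-112506674, had Myc coverage of 0% in all tumours, against 36.1%, 19.0%, 22.2% and 100% in control livers. RNAPII there covered 0% in all tumours off and on, against 100%, 75%, 100% and 100% in control livers, and H3K27ac covered 0%, 0% and 100% in tumours off, 0% in all tumours on and 100% in all control livers. Across the run H3K27ac covered 0% in all tumours on. In the run of 4 at chr6:129132527-129137684, by contrast, the marks stayed: in chr6:129132527-129133375 Myc covered 0% in all tumours, against 13.4%, 24.6%, 0% and 100% in control livers, and all 3 marks covered 100% in all 33 libraries. The run of 3 at chr18:20828144-20833487 held chr18:20831275-20833487, in which H3K27ac covered 100% in all 3 tumours off, 0% in all tumours on and 100% in all control livers, while RNAPII covered 100%, 100%, 100% and 12.7% in tumours on and 100% elsewhere.

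After tet-Myc shutdown 23 lost regions (4.63%) had a Myc peak in at least 1 switched-off list, against 5.15% of kept regions and 0.805% of all Myc regions. In all 3 switched-off lists 14 (2.82%) had one, against 0.400% of kept and 0.146% of all Myc regions, so that 14 of the 57 regions found in all 3 lists were lost regions. The switched-off lists were not used by the rule. These 23 regions were 14 of the class with H3K4me3, 9 unmarked ones, 0 of the 157 with H3K27ac without H3K4me3 and 0 of the 21 with RNAPII alone. Together, 3 places held 14 of the 23. Of the 14 lost regions in all 3 switched-off lists, chr9:2999852-3036159 held 7, chr2:98503756-98505342 held 2 and the mitochondrial genome held 1. The share of 2.82% thus rests mostly on these 3 places. The input was not analysed here, so whether the peaks at these places depend on the Myc antibody was not tested. They are called peaks and are not shown to be Myc binding. At chr9:2999852-3036159 there were 9 lost regions, all with a switched-off peak, and none of the 27 Myc regions there had a peak in any tumour on. At chr2:98503756-98505342 there were 2, including chr2:98503756-98504323, where Myc covered 50.5%, 23.2% and 40.1% in tumours off, 0% in all tumours on and 46.0%, 26.1%, 24.7% and 100% in control livers. The mitochondrial genome held 3. In chrM:10917-16374 Myc peaks covered 12.5%, 38.7% and 17.4% in tumours off, 0% in all 6 tumours on and 83.0%, 81.2%, 48.2% and 100% in control livers. In chrM:436-6478, the longest lost region at 6043 bp, they covered 0%, 18.7% and 2.90% in tumours off, 0% in all tumours on and 80.9%, 62.0%, 26.8% and 99.6% in control livers. Away from these places, chr9:35112629-35113271 had Myc over 41.8%, 42.2% and 42.8% of its length in tumours off, 92.9% in tumour 3 and 0% in the other tumours on, and 40.6%, 40.0%, 42.3% and 100% in control livers. Without the mitochondrial regions and all regions with a switched-off Myc peak, 474 lost regions remained, and each count of calls given above stayed within 1.5 times its value; this alternative was chosen after seeing the data.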

How the data were processed

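ChIP-seq peak lists of 46 of 47 samples were used, and the input was not analysed here. The submitters' processing notes name BWA 0.6.2, SAMtools and the mm9 build. Myc, H3K4me3 and H3K27ac lists held the authors' deposited score for each peak, whose scale is not given in the sources used here, and RNAPII lists held positions only. The caller's settings are not given in the sources used here. Peaks were called library by library, since there is 1 list for each. Depth is unknown and limits the precision to an unknown extent.

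Groups came from titles and genotype labels. Coverage was the percent of a merged Myc region under peaks of a library. For each mark it was fitted with limma 3.58.1 in R 4.3.3 (all 3 groups in 1 fit, no covariate, mean-dependent prior variance), over Myc regions in at least 2 Myc libraries with the mark in at least 2 of 11 libraries. P-values were adjusted over all regions of a mark and comparison. The script was tested on simulated data. Counting and plots used Python 3.11.15, numpy 2.4.6, pandas 2.3.3 and matplotlib 3.10.9. Files gave no annotation, so regions took the place of genes.

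Named regions were the 6 with the highest mean control coverage among those in 4 control and 0 tumour lists, the 4 largest changes per mark and direction between tumours on and control, the 2 largest between tumours off and on, up to 3 in all switched-off lists and the longest region; ties went by position, which favours chromosome 1. Regions and lists were chosen with earlier results of these data known.

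Alternatives were other merging, list and score limits, flanks, filters, control subsets, covariates, a replicate block, Fisher's exact test and leaving out each library.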

Additional observations from a re-analysis of the deposited data

Results flagged for a closer look

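Of 19 groups of library values examined at the named regions, 3 had a library far from the others by Dixon's criterion. The criterion only points out values here and is no test. Myc values chose the regions, and where 3 libraries stand at exactly 0% any value above 0% meets it. Myc coverage of chr12:81282596-81283159 was 100.0% in control liver 4, against 72.7% to 73.9% in the other control livers. RNAPII coverage of chr4:152526977-152527523 was 29.62% in control liver 2 and 0% in the other 3. RNAPII coverage of chr3:148715360-148716072 was 42.36% in control liver 1 and 0% in the other 3. Both RNAPII values were below all 4 tumours on at the same region. The causes were not tested.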

How the results depend on the processing

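The lost regions numbered 57 with Myc peaks at or above the median score of all Myc peaks, a limit above the median of every control list. They numbered 220 with a peak in at least 3 control livers, against 497. Leaving out 1 library gave 265 to 593. The other counts are lost regions called in the comparisons of the report. With no tumour peak at all allowed, 25 were lower for RNAPII in tumours off against control. With lost regions redefined on control livers 1 to 3, tumours on against control had 45 (RNAPII), 20 (H3K4me3) and 63 (H3K27ac) lower, RNAPII off against control had 22 lower, and tumours off against on had 1 (RNAPII) and 2 (H3K4me3) higher. With 1000 bp added on each side, tumours on against control had 1 higher for each mark and 56 lower for H3K4me3, H3K4me3 off against control had 4 higher, and off against on had 13 higher (H3K4me3) and 0 lower (RNAPII). Without the filter on low values, RNAPII off against on had 1 lower, and H3K4me3 off against control had 24 lower and 1 higher. With peaks at or above the median width, RNAPII had 37 lower and 0 higher in tumours on against control, 22 lower in off against control and 0 lower in off against on. With peaks at or above the median score, H3K4me3 had 0 lower on against control and 2 lower and 5 higher off against control. H3K27ac had 10 lower on against control and 10 lower and 19 higher off against control. This limit was a single score per mark, which favours lists with higher scores. Against wild-type livers alone, RNAPII had 43 lower on against control, and H3K27ac had 62 lower and 5 higher off against control. With mean coverage as a covariate, H3K4me3 had 30 lower and 0 higher off against control and 8 lower and 2 higher off against on, and H3K27ac had 55 lower and 4 higher off against control. With presence at 50% coverage, RNAPII had 0 higher on against control and 0 lower off against on, H3K4me3 had 24 lower and 1 higher off against control and 3 higher off against on, and H3K27ac had 1 higher on against control. Fisher's exact test, whose smallest two-sided p for 4 against 4 libraries is 0.0286, called 0 lost regions in all comparisons. After adjustment such a p leads to a call only if most tested regions reach it, so the 0 is no check on the limma calls. The causes of these changes were not tested.

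Same-numbered libraries of different groups are different specimens. Their deviations from the group means correlated at -0.101 to 0.122, and not every library correlated best with its own number. Between tumours on and control livers, all pairs within numbers 1 and 2 or within 3 and 4 correlated positively for every mark. All pairs across these sets correlated negatively. For RNAPII, tumour 2 correlated at 0.109 with control liver 2 and at -0.111 with control liver 4. Control livers 1 and 2 carried a transgene, 3 and 4 were wild type, and what else the numbers share was not tested. With switched-off tumours the signs were mixed. With the replicate block, H3K4me3 off against control had 25 lower and 1 higher, H3K27ac off against control had 4 higher, and the other 15 counts stayed within 1.5 times.

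Leaving out 1 library, RNAPII had 58 to 69 lower and 2 to 2 higher on against control, 35 to 51 lower and 1 to 3 higher off against control, and 1 to 3 lower and 3 to 10 higher off against on. H3K4me3 had 33 to 42 lower and 0 to 1 higher on against control, 23 to 33 lower and 1 to 4 higher off against control, and 0 to 1 lower and 4 to 10 higher off against on. H3K27ac had 67 to 91 lower and 0 to 1 higher on against control, 25 to 42 lower and 4 to 12 higher off against control, and 0 to 0 lower and 13 to 31 higher off against on. Without mitochondrial regions and regions with a switched-off Myc peak, an alternative chosen after seeing the data, all 19 counts stayed within 1.5 times. Depth is unknown, so absence of a peak limits every count.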
